A study of Mus musculus with 19 samples.

Results

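The genes described here encode the subunits of the receptors for glutamate and GABA, the principal excitatory and inhibitory transmitters of the brain. They were taken by symbol: the Gria, Grin, Grik and Grid families, the numbered Grm genes, the numbered Gabra, Gabrb, Gabrg and Gabrr families, and Gabrd, Gabre, Gabrp and Gabrq. The rule found 46 protein-coding genes among the 41388 genes counted. One of them, Grid2ip, matches by its letters but encodes a scaffold protein and not a subunit, so it is listed on its own. The remaining 45 comprise 4 AMPA, 7 NMDA, 5 kainate and 2 delta receptor genes, 8 metabotropic glutamate receptor genes and 19 GABA-A receptor genes.

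Ionotropic glutamate receptors are tetrameric cation channels. AMPA receptors carry most fast excitatory transmission, and NMDA receptors pair the obligatory GluN1 subunit, from Grin1, with GluN2 or GluN3 subunits that set channel kinetics and magnesium block. Metabotropic receptors signal through G proteins. GABA-A receptors are pentameric chloride channels, most often built from alpha, beta and gamma subunits, and the alpha subunit shapes their affinity and placement. In the cerebellum, granule cells are the most numerous neurons and are known for the alpha6 and delta GABA-A subunits and for GluN2C.

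Messenger RNA was measured in whole brains of E13.5 embryos (13.5 days post coitum) and in adult cerebellums (56 days post partum) of FVB mice. Wild-type animals were Wiz +/+, and heterozygotes were Wiz MommeD30/+, which carry in all cells 1 copy of a mutant allele from an ENU mutagenesis screen in the gene for the zinc finger protein Wiz. There were 3 Wiz +/+ and 3 Wiz MommeD30/+ male brains, 2 and 2 female brains, and 3 and 3 cerebellums, which the study's methods give as male. The mutation was found in a strain homozygous for a GFP transgene under erythroid alpha-globin sequences, embryos came from crosses of heterozygotes, and for neither tissue do the labels say which animals were littermates.

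Counts per library ran from 16386029 to 50459755, and levels are given as CPM, the counts of a gene scaled by the total counts of its library. Wiz itself had 182 to 200.1 CPM in the male Wiz +/+ brains against 118 to 126 in the heterozygotes, 186 and 195 against 127 and 129.8 in the females, and 95.4 to 95.5 against 66.6 to 67.7 in the cerebellums, so the groups did not overlap in any of the 3. The 6 granule neuron markers together had 4889 to 5073 CPM in the cerebellums and the 6 Purkinje cell markers 6138 to 6596, while the 5 forebrain markers had at most 5.53. Whole brains held forebrain markers (382 to 702 CPM) and hindbrain and spinal cord markers (142 to 256 CPM). The first Wiz +/+ cerebellum had 38.8 CPM of pituitary and eye markers, against at most 0.740 in the other 5 cerebellums, and the second heterozygous cerebellum had 950.3 CPM of choroid plexus markers, against 1738 to 2041 in all others.

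The receptor genes took up 0.669% to 0.689% of all counts in the cerebellum and 0.152% to 0.191% in E13.5 brain. In Wiz +/+ cerebellum 40 of the 46 reached a mean of 1 CPM and 17 reached 100 CPM, whereas in male Wiz +/+ brain 37 reached 1 CPM and 5 reached 100 CPM. Comparing Wiz +/+ cerebellum with male Wiz +/+ brain by the quasi-likelihood test of edgeR, 42 genes could be tested, of which 29 were higher and 9 lower in cerebellum. The threshold was an adjusted p of at most 0.05 with a fold change over 1.3 or under 0.7. Over all genes tested, 36.4% were higher and 32.9% lower at this threshold (69.3% in either direction), so the receptor genes lay above the background in one direction and below it in the other. Their median log2 fold change was 0.91, against -0.02 over all genes. Grin2d, Gabra2, Grik2 and Grin3a were the 4 tested genes that did not pass. Age and brain region cannot be told apart in this comparison, and in whole tissue fewer cells of a type and less RNA per cell cannot be told apart either.

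**Figure D1:**
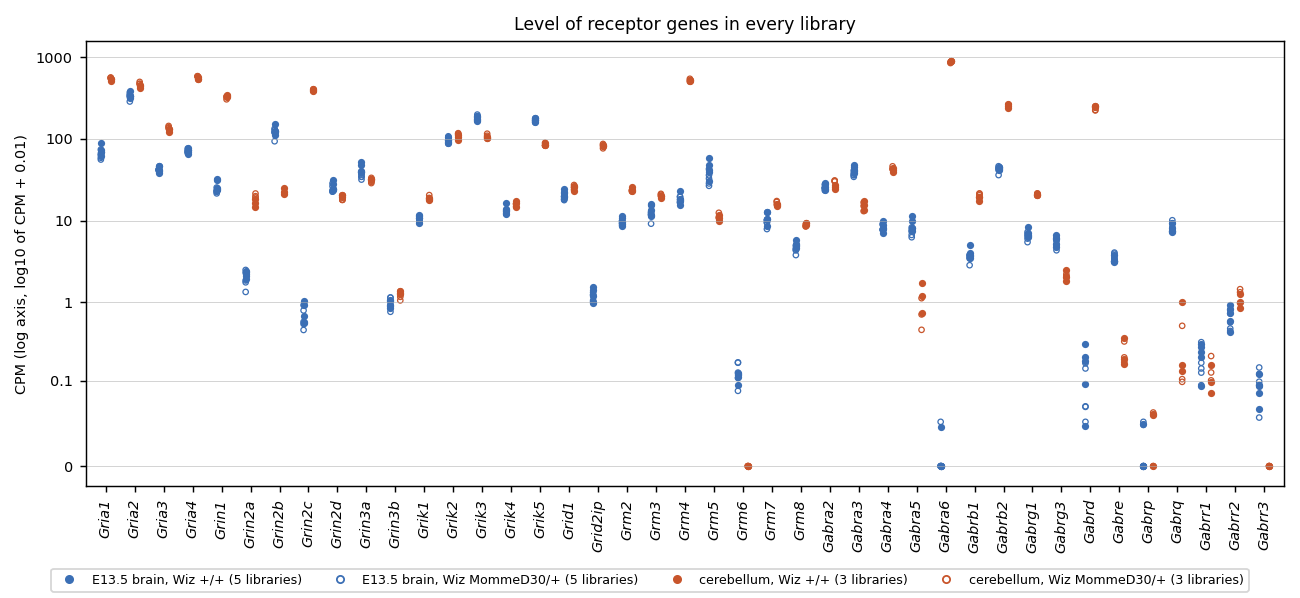
Level of 41 of the 46 receptor genes in each of the 16 libraries, in CPM on a log axis (0.01 added so that 0 can be drawn); each point is 1 library, blue for E13.5 brain and orange for cerebellum, filled for Wiz +/+ and open for Wiz MommeD30/+. The tissues lie far apart for genes such as Gabra6 and Grin2c, and the genotypes lie close together within each tissue.

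Within the NMDA receptor family, the leading GluN2 subunit differed between the tissues. Grin2c, which encodes GluN2C (chromosome 11, 115249169 to 115267243 of mm10), had 0.912, 0.549 and 0.669 CPM in the 3 male Wiz +/+ brains and 402, 390.5 and 381 CPM in the 3 Wiz +/+ cerebellums. Those are 78 counts against 35551, a ratio of 508 between the CPM of the pooled libraries of each group. The 95% exact Poisson interval on the brain counts was 407 to 642 (counting error only). Grin2b, the GluN2B gene and the embryonic GluN2 of forebrain (chromosome 6, 135713233 to 136173511), had 151, 120.1 and 125 CPM in the brains and 21.0, 22.3 and 25.3 CPM in the cerebellums. Its log2 fold change was -2.32 (SE 0.09, edgeR adjusted p = 1.1e-12). Every brain was low for Grin2c and high for Grin2b, and every cerebellum the reverse. Grin2a, encoding GluN2A, a subunit that typically rises after birth, went from 2.12, 2.38 and 2.21 CPM to 14.5, 18.2 and 16.4 CPM, a log2 fold change of 3.10 (SE 0.11, edgeR adjusted p = 6.4e-13). Grin2d, encoding GluN2D, had 23.4 to 24.5 CPM in the brains and 19.3 to 20.7 CPM in the cerebellums. The log2 fold change of -0.04 (SE 0.06) did not pass the test (edgeR adjusted p = 0.47), although it was -0.35 (adjusted p = 7.1e-04) with the 2 female Wiz +/+ brains in place of the males.

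To compare levels between genes, CPM was divided by the length of each gene's annotated exons in kilobases. On that scale Grin2b held 57.6% ± 2.5 (SD, n = 3) of the summed GluN2 level in male Wiz +/+ brain and Grin2d 39.5% ± 2.6, while Grin2c held 94.1% ± 0.28 in Wiz +/+ cerebellum. The brain shares depend on the length used, because 24842 exonic bases are annotated for Grin2b. Without division by length Grin2b held 82.9% and Grin2d 15.2%. With the longest coding transcript as the length, Grin2b held 53.5% and Grin2d 43.5%. Grin2b led in male Wiz +/+ brain and Grin2c in Wiz +/+ cerebellum on all 3 scales.

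The other NMDA receptor genes moved less evenly. Grin1, the gene for the obligatory GluN1 subunit, had 31.5, 24.2 and 23.5 CPM in the brains and 341, 324 and 332 CPM in the cerebellums, a log2 fold change of 3.83 (SE 0.08, edgeR adjusted p = 1.6e-15). An antisense gene, Grin1os, shares 13.5% of its exonic bases, and whether reads were counted by strand is not stated. Grin3a, whose GluN3A subunit marks juvenile synapses, had 39.1 to 47.9 CPM in the brains and 31.1 to 32.7 CPM in the cerebellums. Its log2 fold change was -0.21 (SE 0.07, edgeR adjusted p = 0.013), inside the fold limits. Grin3b had 0.854 to 1.08 CPM in the brains and 1.28 to 1.38 CPM in the cerebellums, and was higher there by 0.67 on the log2 scale (SE 0.19, edgeR adjusted p = 0.0037). Of this gene, 32.1% of the exonic bases are shared with Tmem259 on the opposite strand.

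All 4 AMPA receptor genes were higher in cerebellum. Gria1, for GluA1, had 88.3, 73.7 and 68.2 CPM in the brains and 533, 544 and 516 CPM in the cerebellums, a log2 fold change of 2.99 (SE 0.08, edgeR adjusted p = 8.6e-15). Gria4, for GluA4, rose by 3.21 (SE 0.05), from 64.6 to 73.2 CPM to 543 to 570.3 CPM. Gria3, for GluA3, rose by 1.81 (SE 0.06), from 38.3 to 46.1 CPM to 123 to 132 CPM. Gria2, whose edited GluA2 subunit makes the channel impermeable to calcium, changed least. It had 385, 330.04 and 338 CPM in the brains and 425, 453 and 445 CPM in the cerebellums, a log2 fold change of 0.54 (SE 0.06, edgeR adjusted p = 2.5e-07).

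The make-up of the AMPA family therefore differed between the tissues. Per kilobase, Gria2 held 44.8% ± 0.33 (SD, n = 3) of the summed AMPA level in male Wiz +/+ brain and 13.1% ± 0.35 in Wiz +/+ cerebellum, where Gria1 held 40.5% ± 0.56 and Gria4 40.4% ± 0.13. Without division by length, Gria2 held 65.2% in brain and 26.7% in cerebellum. With the longest coding transcript it held 49.5% and 16.1%. Its share was lower in cerebellum on all 3 scales. Gria1 and Gria4 in cerebellum were closer to each other than their spread per kilobase of exons, but on the other scales Gria4 lay above Gria1 without overlap (33.4% against 32.1% without division by length, and 38.4% against 36.2% with the longest coding transcript).

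**Figure D2:**
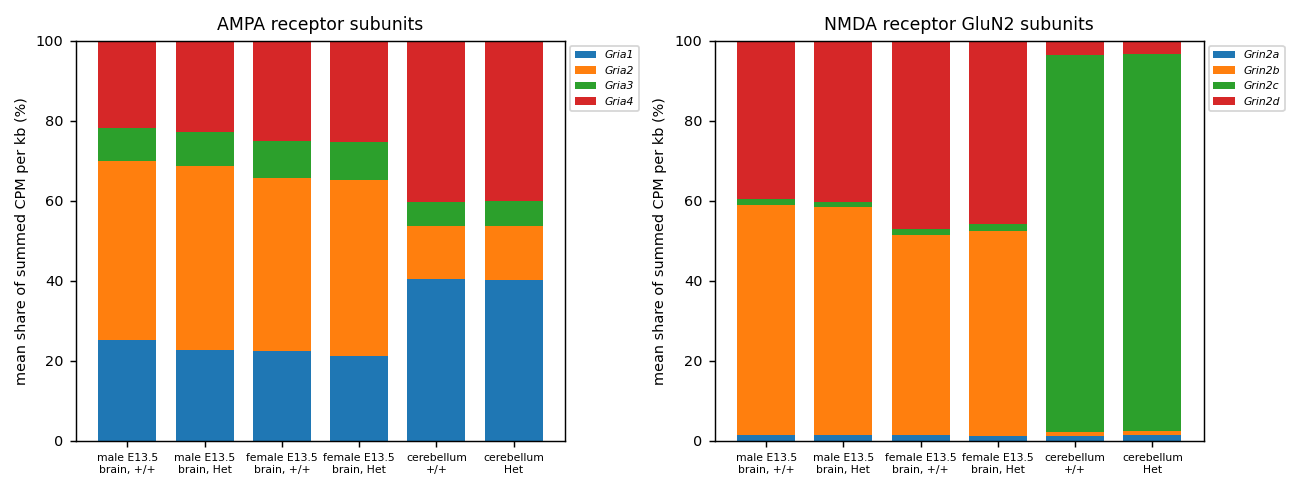
Mean share of each subunit in the summed CPM per kilobase of its family (in percent; stacked bars, 1 bar per group of 2 or 3 libraries), for AMPA receptors and GluN2 subunits. Grin2b and Grin2d fill the GluN2 bars of E13.5 brain and Grin2c those of cerebellum (94.1% in Wiz +/+), and the Gria2 share of the AMPA bars is smaller in cerebellum than in brain.

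The kainate receptor genes moved in both directions, and by less than 1 on the log2 scale. The high-affinity subunit gene Grik5 had 162 to 182 CPM in the brains and 83.1 to 89.0 CPM in the cerebellums, a log2 fold change of -0.78 (SE 0.04, edgeR adjusted p = 1.8e-10). Grik3 fell by 0.55 (SE 0.04). Grik1 rose by 0.97 (SE 0.08) and Grik4 by 0.52 (SE 0.08). Grik2 had 96.5 to 106 CPM in the brains and 96.7 to 112 CPM in the cerebellums, and its log2 fold change of 0.28 (SE 0.06) was inside the fold limits. Summed per kilobase, the 5 kainate genes had 64.1 ± 2.9 (SD, n = 3) in brain and 41.5 ± 0.39 in cerebellum, the only one of the AMPA, NMDA, kainate, delta, metabotropic, alpha, beta and gamma sums whose mean was lower in cerebellum. In brain, Grik5 ranked first of all 46 genes per kilobase (33.1 ± 1.9), followed by Gria2 (22.6 ± 1.9) and Grik3 (19.7 ± 1.1). This order depends on the length used. Without division by length, Gria2 lay above Grik5 (330 to 385 against 162 to 182 CPM).

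The scaffold gene Grid2ip had 1.19, 1.53 and 1.02 CPM in the brains and 81.2, 84.3 and 80.9 CPM in the cerebellums, a log2 fold change of 6.32 (SE 0.08, edgeR adjusted p = 5.9e-18). The delta receptor gene Grid1 differed by 0.48 (SE 0.07), with 19.2 to 22.3 CPM in the brains and 23.3 to 26.4 CPM in the cerebellums.

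Metabotropic receptor genes also moved in both directions. Grm5, for mGlu5, had 58.8, 39.8 and 41.7 CPM in the brains and 10.04, 10.8 and 11.6 CPM in the cerebellums, a log2 fold change of -1.93 (SE 0.13, edgeR adjusted p = 2.0e-09). Every cerebellum lay below every brain. Grm4, the presynaptic group III receptor of parallel fibres, had 15.5 to 18.0 CPM and then 509 to 530.4 CPM, a log2 fold change of 5.16 (SE 0.06, edgeR adjusted p = 1.6e-18). Grm2 (1.53), Grm8 (1.13), Grm7 (0.71) and Grm3 (0.70) were also higher on the log2 scale. Grm6, known as the receptor of retinal ON bipolar cells, had 49 counts in the 10 brains and 0 in the 6 cerebellums, where 3 counts in the smallest library would be 0.106 CPM.

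The leading alpha subunits of the GABA-A receptor also differed between the tissues. Gabra6 (chromosome 11, 42306437 to 42321072) had 1 count in the 3 male Wiz +/+ brains together and 885, 896 and 893 CPM in the Wiz +/+ cerebellums, 80982 counts in all. The ratio of CPM of the pooled libraries was 90223, and its 95% exact Poisson interval on the single brain count ran from 16193 to 3.56e+06. The highest value in any of the 10 brains was 0.0248 CPM. Gabra4 rose by 2.40 (SE 0.07), from 7.99 to 9.85 CPM to 39.7 to 44.6 CPM.

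Gabra5 and Gabra3 fell. Gabra5 had 11.3, 7.57 and 8.17 CPM in the brains and 1.70, 0.743 and 1.21 CPM in the cerebellums, a log2 fold change of -2.72 (SE 0.22, edgeR adjusted p = 1.3e-08). Gabra3 had 47.4, 41.2 and 38.2 CPM and then 15.3, 13.3 and 17.3 CPM, a log2 fold change of -1.26 (SE 0.09, edgeR adjusted p = 4.7e-09). Gabra2 had 24.7 to 28.9 CPM in the brains and 24.7 to 26.9 CPM in the cerebellums. Its log2 fold change of 0.14 (SE 0.07) did not pass (edgeR adjusted p = 0.055). Scaling by total counts alone lowered the median of all genes by 0.21 on the log2 scale, gave Gabra2 -0.068 and left 34 receptor genes past the threshold. With the 2 female Wiz +/+ brains in place of the males, Gabra2 had 0.27 (adjusted p = 0.0035). Over its 13 alternatives the adjusted p of Gabra2 ran from 0.0035 to 0.33.

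Per kilobase, Gabra3 held 52.3% ± 0.70 (SD, n = 3) of the summed alpha level in male Wiz +/+ brain, with Gabra2 at 17.3% ± 1.1 and Gabra5 at 14.6% ± 1.8. Without division by length these shares were 42.1%, 27.1% and 8.92%, and with the longest coding transcript 47.1%, 19.0% and 13.7%, with Gabra3 highest each time. In Wiz +/+ cerebellum Gabra6 held 74.3% ± 0.32. Without division by length its share was 50.2%, and with the longest coding transcript 65.6%, the highest of the family each time. Gabra6 was also first of all 46 genes per kilobase in cerebellum (358 ± 2.2), with Gria1 (87.9 ± 2.4), Gria4 (87.8 ± 2.4) and Grm4 (87.3 ± 1.9) also among the highest 5. Those 3 did not differ beyond their spread on this scale, nor did Gabrd, the next in order (87.1 ± 0.93). Their closeness depends on the length used. Without division by length Gabrd had 247 to 253 CPM. Gria1 had 516 to 544, Gria4 543 to 570 and Grm4 509 to 530 CPM.

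Gabrb2, a beta subunit gene, went from 41.9 to 44.7 CPM in the brains to 241 to 270.3 CPM in the cerebellums, a log2 fold change of 2.76 (SE 0.05, edgeR adjusted p = 2.6e-16). It held 25.9% ± 1.4 (SD, n = 3) of the summed beta level per kilobase in male Wiz +/+ brain and 62.5% ± 1.2 in Wiz +/+ cerebellum. Those shares were 25.1% and 60.3% without division by length, and 32.8% and 70.0% with the longest coding transcript. Gabrd, for the extrasynaptic delta subunit of granule cells, had 0.297, 0.183 and 0.204 CPM in the brains and 253, 247 and 251 CPM in the cerebellums. Those are 25 counts against 22755, a ratio of 1014 between the CPM of the pooled libraries (95% exact Poisson interval on the brain counts 687 to 1567).

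Among the rarer GABA-A subunit genes, Gabrq and Gabre were lower in cerebellum. Gabrq, for theta, had 8.22, 7.57 and 7.42 CPM in the male Wiz +/+ brains and 0.164, 0.135 and 1.01 CPM in the cerebellums, a log2 fold change of -3.92 (SE 0.31, edgeR adjusted p = 1.2e-08). The third Wiz +/+ cerebellum stood above the other two for this gene. Gabre, for epsilon, had 3.19, 3.23 and 3.81 CPM and then 0.196, 0.169 and 0.359 CPM, a log2 fold change of -3.59 (SE 0.24, edgeR adjusted p = 1.4e-09). The rho subunits, known from retina, had low counts. Gabrr2 had 0.427 to 0.813 CPM in the brains and 0.851 to 1.25 CPM in the cerebellums, and was higher in cerebellum by 0.85 on the log2 scale (SE 0.25, edgeR adjusted p = 0.0060). Gabrr1 was at most 0.317 CPM, and Gabrr3 had 35 counts in the 10 brains and 0 in the 6 cerebellums. Gabrp had 3 counts in the brains and 3 in the cerebellums. Gabrp, Gabrr3 and Grm6 passed the filter on low counts in no comparison.

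The GABA-A genes share a property that the choice by symbol did not use: 16 of the 19 lie in 5 groups on the chromosomes, each holding genes less than 2 Mb apart. On chromosome 11, Gabra6 (42306437 to 42321072) and Gabrb2 (42419757 to 42629028) are neighbours, and both were higher in cerebellum. On chromosome 5, between 70751047 and 72149037, lie Gabrg1, Gabra2, Gabra4 and Gabrb1, of which Gabrg1 (1.72), Gabra4 (2.40) and Gabrb1 (2.35) were higher on the log2 scale and Gabra2 did not pass. On chromosome 7, Gabrg3 (56716465 to 57387188; log2 fold change -1.32) and Gabra5 (57407672 to 57510059; -2.72) were both lower. The chromosome 11 and chromosome 7 groups also hold genes not reported here, so no direction is given for either group as a whole. On the X chromosome, between 72255999 and 72842602, Gabre, Gabra3 and Gabrq were all 3 lower. Gabrr2 and Gabrr1 form the fifth group, on chromosome 4. Exons of Gabra4 and Gabrb1 overlap by 46 bases on opposite strands, which is 0.756% of the exonic bases of Gabra4.

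**Figure D3:**
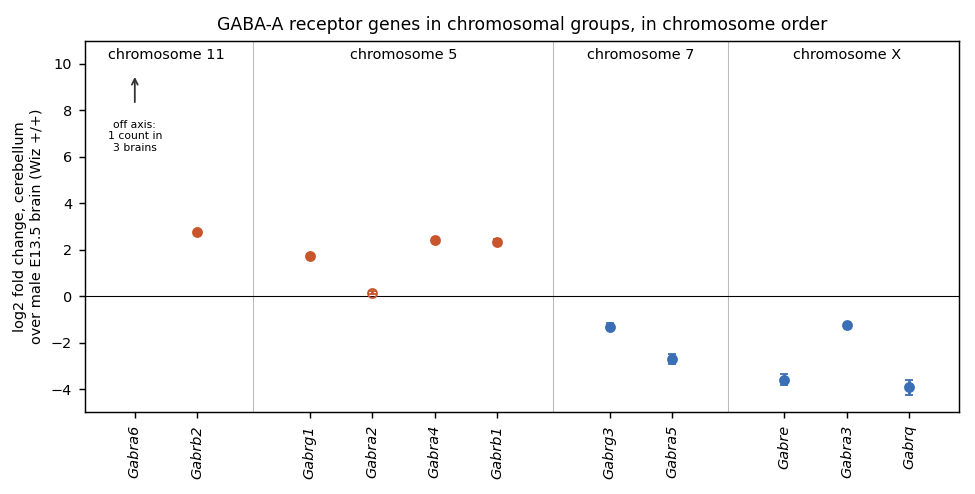
Log2 fold change of Wiz +/+ cerebellum over male Wiz +/+ E13.5 brain (3 against 3 libraries, edgeR; bars are SE) for 11 GABA-A genes of 4 chromosomal groups, in the order of their positions; orange is higher and blue lower in cerebellum, and the open point did not pass the threshold. The chromosome 11 genes shown are higher and the X genes lower; Gabra6 is drawn as an arrow because its 3 brains held 1 count.

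Promoter sequences from RefSeq (GRCm38.p6, 250 bases before to 50 after the start of transcription) were matched by symbol for 31 of the 46 genes, in 39 windows. Gabrd, Gria1, Gria3, Grid1, Grik1, Grin2a, Grin2b, Grin3a, Grm4 and Grm5 were among the 15 with no window. The sequences below were chosen, after the values were seen, to set genes of the chromosome 11 group beside genes of the X group, with Grin2c as the GluN2 gene of cerebellum. Each is written 5′ to 3′ on the strand of its gene, and capitals mark CG dinucleotides. Gabra6 lies at chr11:42321023-42321322 on the minus strand, Gabrb2 (the first of its 3 starts) at chr11:42420190-42420489 on the plus strand, Gabre at chrX:72274672-72274971 on the minus strand, Gabrq at chrX:72824928-72825227 on the plus strand and Grin2c at chr11:115267194-115267493 on the minus strand.
Gabra6: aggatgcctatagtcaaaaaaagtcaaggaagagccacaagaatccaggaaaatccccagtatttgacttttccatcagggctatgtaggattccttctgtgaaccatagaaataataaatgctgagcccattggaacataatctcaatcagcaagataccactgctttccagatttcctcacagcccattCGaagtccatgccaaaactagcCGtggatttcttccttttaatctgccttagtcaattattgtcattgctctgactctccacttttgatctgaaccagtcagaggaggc
Gabrb2: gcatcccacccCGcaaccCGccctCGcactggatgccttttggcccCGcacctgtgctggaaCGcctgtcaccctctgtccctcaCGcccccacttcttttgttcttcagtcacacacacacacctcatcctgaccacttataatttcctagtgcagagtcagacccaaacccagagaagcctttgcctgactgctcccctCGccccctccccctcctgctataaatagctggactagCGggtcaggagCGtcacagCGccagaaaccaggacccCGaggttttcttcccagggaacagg
Gabre: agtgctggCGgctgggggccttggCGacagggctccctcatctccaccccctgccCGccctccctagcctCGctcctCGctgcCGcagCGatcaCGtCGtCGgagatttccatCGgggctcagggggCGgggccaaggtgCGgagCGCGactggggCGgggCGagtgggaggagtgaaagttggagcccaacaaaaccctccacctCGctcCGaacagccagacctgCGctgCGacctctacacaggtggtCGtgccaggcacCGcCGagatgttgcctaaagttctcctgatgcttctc
Gabrq: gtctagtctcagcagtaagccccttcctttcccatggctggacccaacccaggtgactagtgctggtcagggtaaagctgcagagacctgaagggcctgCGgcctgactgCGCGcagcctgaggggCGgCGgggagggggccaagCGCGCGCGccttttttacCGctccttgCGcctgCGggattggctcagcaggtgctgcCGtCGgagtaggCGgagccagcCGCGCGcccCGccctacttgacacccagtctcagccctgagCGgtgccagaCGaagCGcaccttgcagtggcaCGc
Grin2c: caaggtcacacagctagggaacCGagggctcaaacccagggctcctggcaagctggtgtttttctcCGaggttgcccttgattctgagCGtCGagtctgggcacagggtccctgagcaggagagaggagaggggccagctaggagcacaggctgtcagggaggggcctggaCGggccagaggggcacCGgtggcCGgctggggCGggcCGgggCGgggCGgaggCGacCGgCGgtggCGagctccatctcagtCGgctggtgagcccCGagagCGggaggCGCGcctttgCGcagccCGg

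The Gabra6 window held 2 CG dinucleotides, fewer than those of Gabrb2 (11), Grin2c (22), Gabrq (23) and Gabre (24). Over all 32851 windows of this length in the table the median was 7 and the quartiles were 3 and 20, and over the 39 receptor windows the median was 12. Of the genes shown that were under 1 CPM in male Wiz +/+ brain, Gabra6 had few and Grin2c many CG dinucleotides at the start. Both X chromosome windows shown were rich in them, while the 2 windows of Gabra3 on the same chromosome held 0.

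Genes that act with these receptors were counted from 4 lists. Of 17 genes for the synthesis, vesicle loading and uptake of glutamate and GABA, 12 were higher and 3 lower in Wiz +/+ cerebellum than in male Wiz +/+ brain at the same threshold (70.6% and 17.6%, against 36.4% and 32.9% of all genes). Slc1a6, the glutamate transporter of Purkinje cells, had 170.3 to 189 CPM against 4.36 to 5.45 CPM in brain, and the vesicular transporter gene Slc17a7 557 to 580.04 CPM against 12.5 to 18.6 CPM. Slc17a8, a further vesicular glutamate transporter, had 0.425 to 0.473 CPM in cerebellum against 5.69 to 8.06 CPM in brain. Of 29 genes for auxiliary subunits and scaffolds of glutamate receptors, 13 were higher and 8 lower (44.8% and 27.6%, against the same 36.4% and 32.9% of all genes). Cbln3 and Cbln1, cerebellins secreted by granule cells, rose by 10.41 (SE 0.07) and 3.96 (SE 0.05) on the log2 scale, and Cbln2 changed by -6.75 (SE 0.19).

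Of 8 genes for auxiliary subunits and scaffolds of GABA-A receptors, 4 were higher and 2 lower (50% and 25%, against 36.4% and 32.9% of all genes). The 6 called of 8 are close to the 69.3% of all genes called in either direction. Shisa7 (-2.95, SE 0.06), an auxiliary subunit, was lower, and Insyn1 (2.11, SE 0.05), a component of inhibitory postsynapses, was higher on the log2 scale. Of the 9 GABA-B, glycine receptor and chloride transporter genes, 7 could be tested, with 6 higher and 1 lower (85.7% and 14.3%, against 36.4% and 32.9% of all genes). The glycine receptor genes Glrb (3.79, SE 0.05) and Glra2 (-3.76, SE 0.14) moved in opposite directions. Slc12a5, the chloride exporter that sets the direction of GABA currents, went from 82.2 to 95.7 CPM to 693 to 701 CPM, a log2 fold change of 3.19 (SE 0.05), and Gabbr2, a GABA-B subunit, changed by 3.41 (SE 0.07).

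In adult cerebellum, none of the 40 receptor genes tested passed the threshold between Wiz MommeD30/+ and Wiz +/+ (0 of 40 with edgeR and 0 with the Wald test of DESeq2, against 0.832% of all genes with edgeR). By the adjusted p alone 4 passed, 3 higher and 1 lower in heterozygotes, against 5.25% of all genes (2.69% higher and 2.56% lower). By an unadjusted p of at most 0.05, 13 did, 10 of them higher, against 19.9% of all genes and 9.59% in that direction. Values of the heterozygotes did not overlap those of Wiz +/+ for 12 genes, 9 of them higher, against 24.3% of all genes and 11.7% in that direction. The median log2 fold change of the receptor genes was 0.02, and 23 were higher and 17 lower.

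Gabra2 (chromosome 5, 70957597 to 71095849) had the smallest p. It had 24.7, 26.9 and 26.1 CPM in the Wiz +/+ cerebellums and 30.2, 31.0 and 30.7 CPM in the heterozygotes, all 3 of which lay above all 3 Wiz +/+. The log2 fold change was 0.24 (SE 0.05, edgeR adjusted p = 0.0072), a fold change of 1.18. It kept an adjusted p of at most 0.05 in all 11 alternatives, with log2 fold changes of 0.21 to 0.28. Grin2a (chromosome 16, 9567898 to 9995560) had 14.5, 18.2 and 16.4 CPM against 21.5, 19.2 and 19.9 CPM, again without overlap. Its log2 fold change was 0.31 (SE 0.07, edgeR adjusted p = 0.022), a fold change of 1.24. Without the second Wiz +/+ cerebellum, the highest of its group, it was 0.39 (adjusted p = 0.0052), which passed both limits. Without the first or the third Wiz +/+ or without the first heterozygote the adjusted p rose to 0.092, 0.092 and 0.12.

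Gria2 (chromosome 3, 80681450 to 80802835) had 425, 453 and 445 CPM in Wiz +/+ and 497, 470.3 and 472 CPM in heterozygotes, a log2 fold change of 0.12 (SE 0.03, edgeR adjusted p = 0.034). Gabrd (chromosome 4, 155384980 to 155398112) had 253, 247 and 251 CPM in Wiz +/+ and 226, 223 and 243 CPM in heterozygotes, a log2 fold change of -0.12 (SE 0.03, edgeR adjusted p = 0.043). The groups did not overlap for either gene, and the folds were 1.09 and 0.921. The call for Gria2 was lost without the first or the third Wiz +/+ or without the first heterozygote (adjusted p 0.12, 0.12 and 0.13). That for Gabrd was lost in 5 of the 6 fits that left out a library, those without any 1 of the Wiz +/+ cerebellums (0.12, 0.058 and 0.16) or without the first or second heterozygote (0.19 and 0.18). Gria3, the next by p, was just outside (0.12, SE 0.04, edgeR adjusted p = 0.057).

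Gabra6, the most abundant of the receptor genes in cerebellum, had 885 to 896 CPM in Wiz +/+ and 845 to 871 CPM in heterozygotes, lower without overlap. Of all genes tested, 12.6% were lower without overlap, and Gabra6 did not pass by the adjusted p. Grin2c had 381 to 402 CPM and 384 to 404 CPM, which overlapped. The share of Gabra6 in the alpha family was 74.3% in Wiz +/+ and 73.6% in heterozygotes, and that of Grin2c among the GluN2 genes 94.1% and 94.3%.

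Markers of other cell types differed with genotype in the cerebellums. All 5 red blood cell markers were higher in every heterozygote than in every Wiz +/+ cerebellum (summed 266 to 481 against 145 to 228 CPM), and 4 of the 6 oligodendrocyte markers were lower without overlap (summed 4635 to 4835 against 4792 to 5148 CPM). The granule neuron sums were 4928 to 5073 CPM in heterozygotes and 4889 to 4950.4 CPM in Wiz +/+, and the Purkinje sums 6472 to 6596 and 6138 to 6558 CPM, both overlapping. The newborn neuron sums were 1093 to 1116 CPM in heterozygotes and 1128 to 1159 CPM in Wiz +/+, without overlap. Of these 5 markers, Stmn2 and Tubb3 were lower and Elavl3 higher without overlap. By the mean, 3 of the 5 were higher in heterozygotes and 2 lower. The neural progenitor sums overlapped, with 230.5 to 254.0 CPM in heterozygotes and 243.7 to 248.9 CPM in Wiz +/+. Of these 6 markers, Nes, Sox2 and Mki67 (at most 1.79 CPM) were lower without overlap. By the mean, 5 were lower and Vim was higher (207.7 CPM in heterozygotes against 199.6 in Wiz +/+). The part of these markers in the small differences above was not tested. None of the 4 lists of related genes held a gene past the threshold in cerebellum. By the adjusted p alone only Cbln3 passed (log2 fold change 0.12, SE 0.03, edgeR adjusted p = 0.031), with 1555 to 1617 CPM in Wiz +/+ and 1668 to 1770.4 CPM in heterozygotes.

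**Figure D4:**
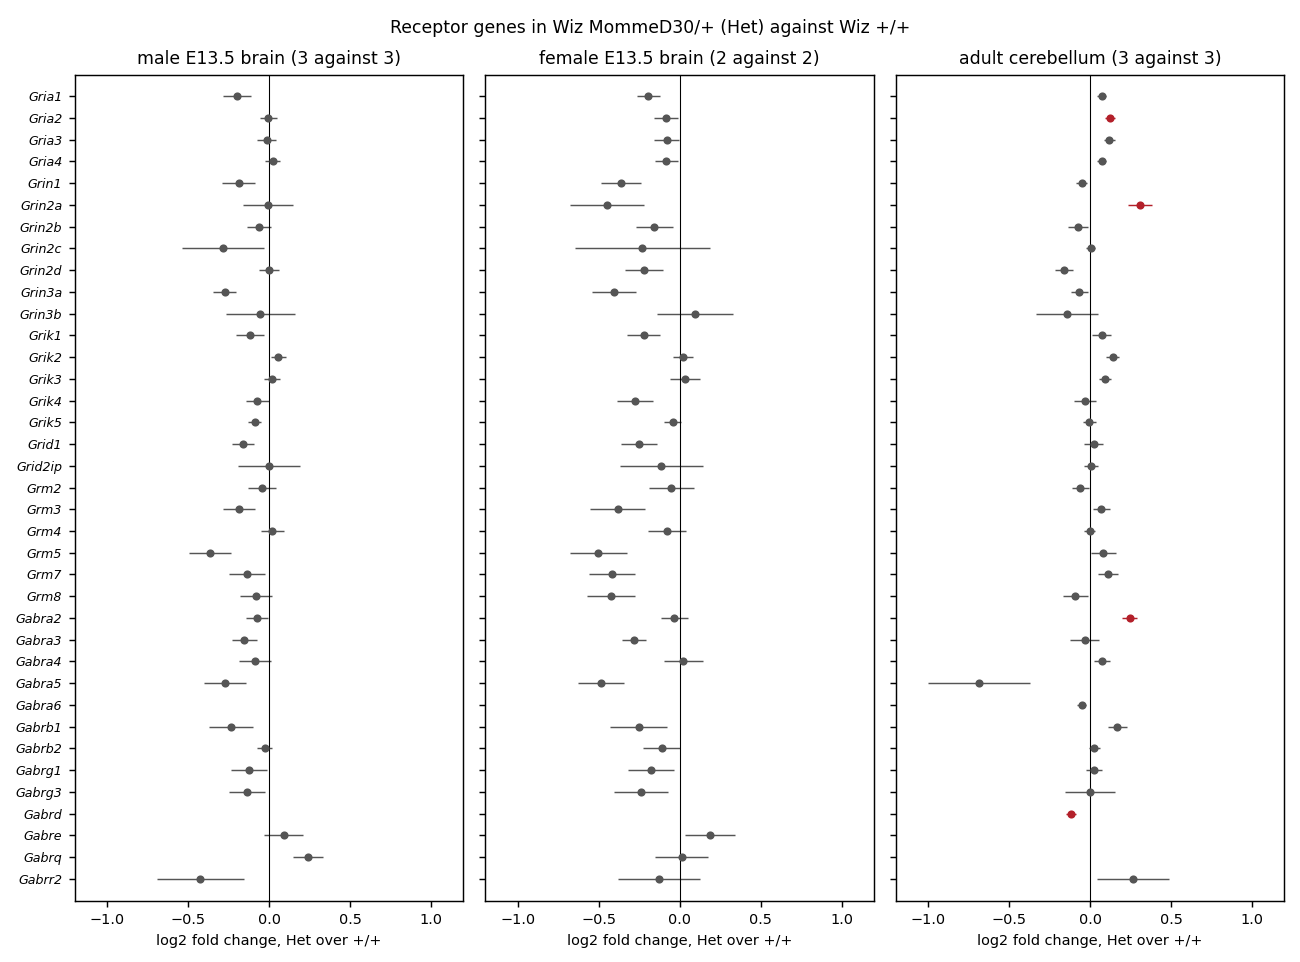
Log2 fold change of Wiz MommeD30/+ over Wiz +/+ for receptor genes tested in male brain, female brain and cerebellum, with 5 genes not drawn (edgeR; bars are SE, and red points have an adjusted p of at most 0.05). Most points lie left of 0 in both embryonic comparisons and on both sides in cerebellum; over all genes tested, 30 of 40 were lower in males, 33 of 40 in females and 17 of 40 in cerebellum.

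In E13.5 brain no receptor gene passed the threshold in either sex. In males this was 0 of 40 with edgeR and 0 with the Wald test of DESeq2, against 0.184% of all genes with edgeR. At an unadjusted p of at most 0.05 there were 5, against 8.45% of all genes, and 4 of them were lower, against 4.49%. In females it was 0 of 40 with both tools, against 0.111%, and 11 at the unadjusted limit, all lower, against 6.4% of all genes and 3.68% in that direction. With all 10 brains in 1 fit and sex as a covariate it was 0 of 41 with both tools, against 0.346%, and 16 at the unadjusted limit, all lower, against 11.8% of all genes and 6.85% in that direction.

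Most of the receptor genes leaned lower in the heterozygous embryos without passing the test one by one. In males 30 of 40 had a negative log2 fold change, with a median of -0.08. In females 33 of 40 did, with a median of -0.18, and over both sexes 35 of 41, with a median of -0.13. The medians over all genes were 0.00 in each fit, and the receptor genes share their libraries, so these counts are not independent observations. The groups did not overlap for 3 genes in males (2 lower), against 12.3% of all genes (5.4% lower), and for 16 in females (15 lower), against 36.5% of all genes, of which 17.3% lower.

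Grin3a had the smallest p in males and over both sexes. It had 47.9, 39.1 and 40.5 CPM in the male Wiz +/+ brains against 34.5, 34.4 and 38.0 CPM in the heterozygotes, and 38.8 and 51.7 against 31.8 and 36.6 CPM in the females, so the groups did not overlap in either sex. Over both sexes the log2 fold change was -0.33 (SE 0.08, edgeR adjusted p = 0.12). In males alone it was -0.28 (SE 0.07, edgeR adjusted p = 0.25). Over both sexes the adjusted p of Grin3a ran from 0.010 to 0.40 over 14 alternatives, with 0.014 by the Wald test of DESeq2 and 0.010 without the filter on low counts, and its fold change stayed inside the fold limits in both. In males, leaving out that filter brought the adjusted p of Grin3a (0.0025), Grm5 (0.0014) and Gria1 (0.049) under the limit, with folds inside the fold limits. Grm5 had 58.8, 39.8 and 41.7 against 32.8, 36.0 and 42.9 CPM in males, which overlapped, and 30.8 and 47.4 against 28.6 and 26.7 CPM in females. Over both sexes its log2 fold change was -0.42 (SE 0.12, edgeR adjusted p = 0.21, and 0.031 without the filter on low counts).

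Also among the 5 smallest p over both sexes were Gabra3 (-0.20, SE 0.06, edgeR adjusted p = 0.204) and Gabra5 (-0.35, SE 0.11, 0.215). In females alone Gabra3, Gabra5, Grin3a and Grm7 were among the 5 smallest, with log2 fold changes of -0.28 to -0.49 and an edgeR adjusted p of 0.77 each. In males Grid1 (-0.16, SE 0.07) and Gria1 (-0.20, SE 0.09) followed Grm5, and Gabrq was the 1 of the 5 that was higher (0.24, SE 0.09), with 8.22, 7.57 and 7.42 CPM in Wiz +/+ against 10.1, 9.21 and 8.28 CPM. None passed (edgeR adjusted p = 0.49 to 0.57).

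**Figure D5:**
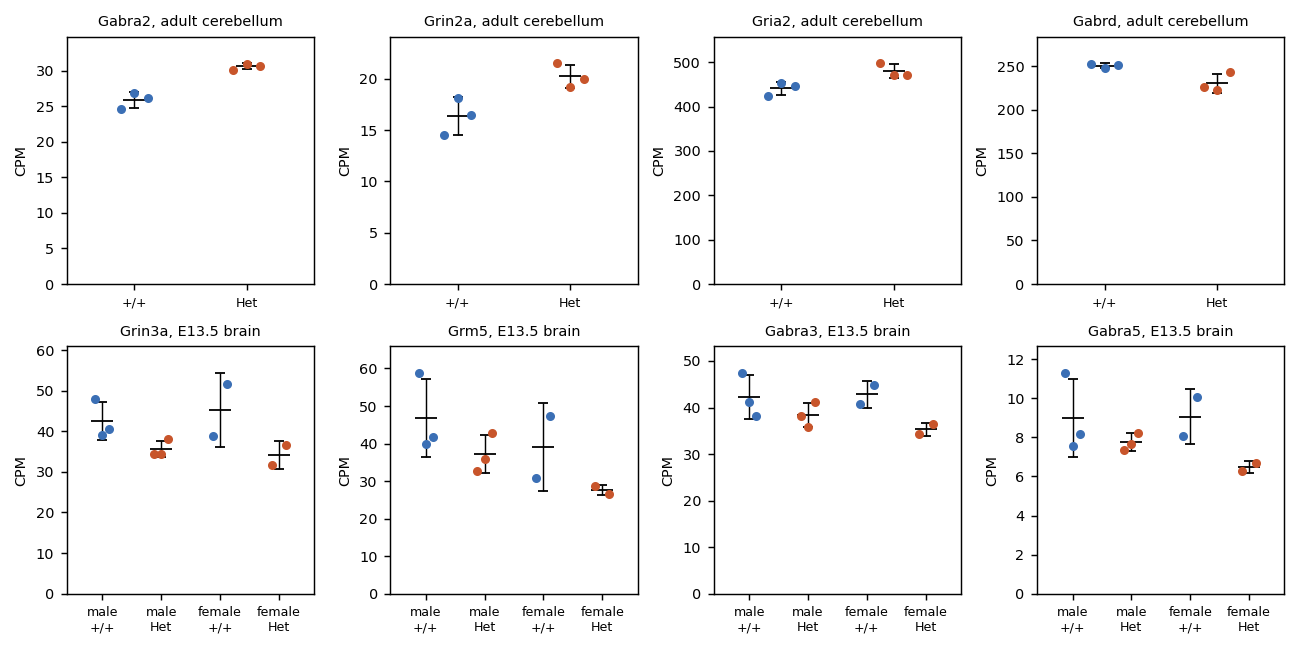
CPM in each library (points; blue Wiz +/+, orange Wiz MommeD30/+) with the group mean and SD, for the 4 genes with an adjusted p of at most 0.05 in cerebellum (top row, 3 libraries a group) and for 4 of the 5 with the smallest p over both sexes in E13.5 brain (bottom row, 3 male and 2 female libraries a group). The axes start at 0: Gabra2 and Grin2a show the largest changes of the 4 cerebellar genes drawn, and the spread among Wiz +/+ brains is wide for Grm5. Over the 40 receptor genes tested in cerebellum, log2 fold changes ran from -0.69 to 0.31.

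Single embryos carried much of the spread. The first male Wiz +/+ brain was the highest of the 6 males for Grm5, Gria1, Grin1, Gabra5 and Grin3a, and the second female Wiz +/+ brain the highest of the 4 females for Grm5, Grin1, Gabra5 and Grin3a. Without the first female Wiz +/+ brain, the lower of the pair for these genes, 3 genes passed the threshold, all lower in heterozygotes: Grm5 (-0.78, adjusted p = 4.7e-04), Grin3a (-0.60, adjusted p = 0.0051) and Grin1 (-0.54, adjusted p = 0.015). In that fit the 1 remaining Wiz +/+ brain was assumed to vary like the others.

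Levels of cell type markers also differed between the brains. The 6 neural progenitor markers were summed at 1863 CPM in the first male Wiz +/+ brain, against 2039 and 2116 CPM in the other two and 2059 to 2165 CPM in the heterozygotes. In females they were 1957 and 1707 CPM in Wiz +/+ and 2169 and 2074 CPM in heterozygotes, without overlap. The 5 newborn neuron markers were 5076 and 5369 CPM in the female Wiz +/+ brains against 4872 and 5094 CPM in heterozygotes, which overlapped, and 4842 to 4975 CPM in the males. All 5 had a lower mean in the female heterozygotes, 3 of them without overlap. In males 3 had a lower and 2 a higher mean in heterozygotes. The 5 forebrain markers were 584 to 702 CPM in the male Wiz +/+ brains against 439 to 665 CPM in heterozygotes, all 5 with a lower mean in heterozygotes, but 382 and 402 against 398 and 484 CPM in the females. Red blood cell sums were 356 and 311 CPM in the female heterozygotes against 378 and 446 CPM in Wiz +/+, all 5 markers without overlap, and microglia sums 54.4 and 50.8 against 59.2 and 57.5 CPM, also lower without overlap. In males the Purkinje sums (73.0 to 77.1 against 61.8 to 66.8 CPM) and the granule neuron sums (398 to 411 against 385 to 397 CPM) were higher in heterozygotes without overlap. Of the 6 Purkinje markers 5 had a higher mean in heterozygotes. Of the 6 granule neuron markers only 2 did, and 4 had a lower mean. Most of the granule neuron sum was Zic1, with a mean of 324 CPM in heterozygotes against 301 in Wiz +/+. The part of these markers in the lower receptor levels was not tested.

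No receptor gene passed the adjusted p for a genotype effect that differed between cerebellum and male brain (0 of 42 with edgeR and 0 with the Wald test of DESeq2, against 0.26% of all genes). At an unadjusted p of at most 0.05 there were 7, all with the higher value in cerebellum, against 9.72% of all genes and 4.81% in that direction. Gabra2 had the smallest p, with log2 fold changes of heterozygote over Wiz +/+ of 0.24 in cerebellum and -0.07 in male brain, a difference of 0.32 (SE 0.09, edgeR adjusted p = 0.16). Gabrb1 (0.42), Gria1 (0.27) and Grm5 (0.45) were also among the 5 smallest, with edgeR adjusted p of 0.34 to 0.48. Without the filter on low counts Gabra2, Gria1 and Grm5 passed (adjusted p = 0.025, 0.0020 and 8.1e-04), and without the third male Wiz +/+ brain Gabra2 alone did (0.39, adjusted p = 0.039). Between the sexes, 0 of 41 genes passed the adjusted p for a difference in genotype effect with edgeR, against 0% of all genes, and 0 with the Wald test of DESeq2. At the unadjusted limit there was 1, against 3.98%.

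Per kilobase of annotated exons, Grin2b, Gria2 and Gabra3 held the highest shares of the GluN2, AMPA and alpha families in heterozygous as in Wiz +/+ E13.5 brain. In males Grin2b held 57.6% of the GluN2 level per kilobase in Wiz +/+ and 56.9% in heterozygotes, Gria2 44.8% and 45.9% of the AMPA level, and Gabra3 52.3% and 51.5% of the alpha level. In females those shares were 50.1% and 51.3%, 43.3% and 44.0%, and 53.1% and 52.1%. The female share of Grin2d was 47.0% in Wiz +/+ and 46.0% in heterozygotes. With the longest coding transcript as the length, Grin2d lay above Grin2b in every female brain. None of the 4 lists of related genes held a gene past the threshold in either sex, in the fit of both sexes or in either test of a difference between effects.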

How the data were processed

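RNA-seq counts of 16 samples were used; 3 samples of a Wiz ChIP-seq experiment were not analysed here. The authors prepared polyA RNA with a TruSeq kit, mapped single-end reads to mm10 with TopHat 2.0.11 and counted them per Ensembl gene with HTSeq 0.6.1 (versions per the labels). The deposited values are raw counts; the counting mode, strand setting and annotation release are not given in the sources used here, so reads over near-identical or overlapping genes are uncertain. Symbols, positions and exon lengths came from GENCODE M21 (GRCm38), which held 40254 of 41388 identifiers; the others held at most 0.171% of counts.

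For every comparison only the libraries compared entered the fit, made with edgeR 4.0.16 (R 4.3.3), with TMM scaling, filterByExpr with a minimum count of 10, the quasi-likelihood test and Benjamini-Hochberg adjustment over all genes tested. The threshold followed the study's methods: adjusted p of at most 0.05 and fold under 0.7 or over 1.3, except for interaction terms, which had no fold limits. SEs were derived from the F statistic. CPM was scaled by total counts. p-values measure the spread between these animals. The fits were tested on simulated data.

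Alternatives were DESeq2 1.42.0 size factors and Wald test, no filter, a mean count of at least 50, the replicate number as a block, no fold limits, leaving out each library, total counts alone and female Wiz +/+ brains in the tissue comparison; the longest coding transcript as gene length was added after seeing the data. Genes past the threshold, or otherwise the 5 with the smallest p, were named in genotype comparisons. In the tissue comparison the 8 with the largest fold in each direction, the 5 highest per kilobase and all GluN2, AMPA and alpha genes were named, and up to 3 genes per related list; a few further receptor genes were added after their values were seen. Results of 5 receptor genes and a few others are not reported here by name; they stay in all counts, sums and shares. The members and lists were chosen with earlier results of these data known. Totals per library (16386029 to 50459755) set the precision of low genes: 3 counts are 0.183 CPM in the smallest library.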

Additional observations from a re-analysis of the deposited data

How the results depend on the processing

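In male brain, over both sexes and for the genotype by sex term, the count of receptor genes past the threshold was 0 under every alternative run. Across the fits that left out a library it was 0 to 3 in female brain, 0 to 1 in cerebellum, 0 to 1 for the genotype by tissue term and 37 to 38 in the tissue comparison. Dropping the fold limits gave 4 in cerebellum (3 higher, 1 lower), and dropping the filter gave 3 for the genotype by tissue term; the cause was not tested. Residuals of same-numbered samples correlated at -0.098 (male brains), -0.064 (female brains) and -0.047 (cerebellums). They were centred within groups of 2 or 3 libraries, so these values cannot show whether the replicate numbers pair animals. With the replicate number as a block the counts were 0, 0 and 0, with 38 in the tissue comparison. That fit moved 1 named call, Gria2 in cerebellum (adjusted p = 0.062). Of the log2 fold changes of named genes, 664 of 697 alternative values kept direction and call, 20 gained a call and 12 lost it, all 12 in cerebellum, and 1 reversed: Gabra2 between the tissues was -0.068 with total counts alone. Shares within a family moved with the gene length used, as given in the report for Wiz +/+ male brain and cerebellum. The 2 against 2 female brains gave a median SE of 0.12 for a receptor gene, against 0.086 in male brain and 0.048 in cerebellum.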
